A study of Drosophila melanogaster with 3 samples.

Results

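The genes described here are the core of the RNA interference and microRNA machinery of Drosophila melanogaster, along with blanks, which encodes a double-stranded RNA-binding protein. Of 9 listed genes, 6 had at least 1 array feature annotated to them alone, out of 10805 genes measured. These were drosha, pasha, loqs, Dcr-2, r2d2 and blanks, with 13 features in all, 3 for loqs and 2 for each of the others. Dcr-1, AGO1 and AGO2 had no feature of their own under the annotation and were not analysed here. Features named ago belong to another gene, archipelago, and were not used.

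Small RNAs in flies are cut from double-stranded precursors and guide Argonaute proteins to matching transcripts. In the microRNA branch the nuclear RNase Drosha and its partner Pasha cut the primary transcript, and the cytoplasmic RNase Dcr-1 with its partner Loqs releases the mature microRNA for AGO1. In the small interfering RNA branch Dcr-2, assisted by R2D2, cuts long double-stranded RNA and loads AGO2, chiefly against viruses and transposons. Dcr-1 and loqs are known to be needed for the division and upkeep of germline stem cells in the ovary. The blanks gene is best known from the testis, where its product is needed to finish sperm differentiation.

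Ovaries of females about 7 days old were compared on 3 arrays with 2 colours. The mutant germ line came from pole cells of embryos from sva53[M1] homozygous germline clones, which had been made by the FLP/FRT/DFS system, and the control germ line from pole cells of sva53/+ embryos. Both kinds were transplanted into embryos of osk-homozygous mothers, which form no pole cells of their own, so that follicle cells and other somatic tissue belonged to the host in both channels. Each mutant sample (Cy3) was a pool of 2 pairs of ovaries from a separate experiment, and 1 control RNA from 3 pairs of ovaries (Cy5) served as the reference on all arrays. The comparison asks which transcripts differ in ovaries with an sva53 germ line. The maternal genotype and the genotype of the germ line itself cannot be told apart, because the mutant pole cells also came from mutant eggs.

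Each value is a log2 ratio, mutant over control, so that 0 is equal signal, 1 is a doubling and -1 a halving, and genes with several features were averaged on each array. The labels do not name the numerator of the deposited ratio. It was read as Cy5 over Cy3, the order the scanner software writes, and its sign was turned. The direction is therefore likely and not stated, and with the other numerator each sign below turns. A call is an adjusted p under 0.05 from limma fitted over all 15415 features or gene averages, with n = 3 arrays. The shared control leaves its own spread out of these tests, and the dyes were not swapped, so a dye bias of a feature stays in its ratio.

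Of all entries 13.9% were called, 6.62% higher and 7.23% lower in the mutant. These entries include single features without 1 gene symbol, and the share over the 10805 genes alone is not given here. Log2 ratios spread more widely on array 1 (SD 0.49) than on the others (0.34 to 0.35). Array 1 stood apart in follicle cell genes: the 10 measured eggshell and yolk genes had a mean of -2.46 on array 1, -0.10 on array 2 and 0.04 on array 3, and limma called 0 of them (0 at an unadjusted p under 0.05). Of 11 germ line genes 1 was called, cup (higher). Of 24 testis and male germ line genes 7 were called lower and 1 higher, of 7 fat body genes 3 were called lower, and of 10 muscle genes 0 were called (3 at an unadjusted p under 0.05). The median of the testis list lay at -0.27, -0.29 and -0.24 on arrays 1, 2 and 3. A ratio gives no level, so these lists do not check that the tissue was ovary. The allele is recalled as one of mamo, which the labels do not state, and the single feature of mamo read -0.30, -0.49 and 0.50 (mean -0.10, adjusted p 0.78 with limma).

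The gene blanks was lower in every mutant pool. Its log2 ratios were -2.22 on array 1, -1.41 on array 2 and -2.24 on array 3. Arrays 1 and 3 were nearly equal, while the decrease on array 2 was smaller. The mean was -1.96 ± 0.47 (SD, n = 3 arrays), a 3.88-fold lower signal, with a 95% interval from -2.52 to -1.39 and an adjusted p of 0.0344 with limma. It was placed among the genes described here with that value already known, so its size is a description and not independent support. With any 1 array left out limma called 0 entries, blanks included, while 3277 to 4710 entries had an unadjusted p under 0.05; the mean of blanks then ranged from -2.23 to -1.81 (adjusted p 0.0851 to 0.146). In whole ovaries, fewer cells of a type and less RNA per cell cannot be told apart.

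Both features of blanks gave the same picture. Feature 18923 read -2.12, -1.43 and -2.27, with a mean of -1.94 ± 0.45 (SD, n = 3). Feature 19980 read -2.32, -1.39 and -2.21, with a mean of -1.97 ± 0.51 (SD, n = 3). The smaller decrease on array 2 was thus seen by both. Their means differed by 0.03, and 10.6% of the 4814 genes with 2 features had a smaller difference, against a median of 0.15. Both features were called when features were tested singly (adjusted p 0.0333 for each with limma).

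Among all 10805 genes the mean of blanks was the 13th from the lowest. By array it ranked 46th from the lowest on array 1, 27th on array 2 and 7th on array 3. A mean at least 2-fold lower was found in 1.09% of all entries, and blanks was the only 1 of the 6 measured members with a change of that size. With the other numerator these ranks count from the highest and that share is of entries at least 2-fold higher. Other lists lay below 0 on each array, as blanks did. The median of the testis list was given above. Its lowest mean was -1.47, of S-Lap2 (-1.44, -1.29 and -1.69), while 16 of its 24 genes were not called. The median of the 7 fat body genes was -0.96, -0.04 and -0.42 on arrays 1, 2 and 3. The 3 called lower lay below that median on each array, and the other 4 were not called. Pepck1 read -1.64, -1.74 and -2.02, Lsd-1 -2.16, -1.59 and -1.38, and Obp99b -2.11, -1.59 and -0.86. The part of testis, fat body or eggshell genes in the blanks value was not tested.

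**Figure D1:**
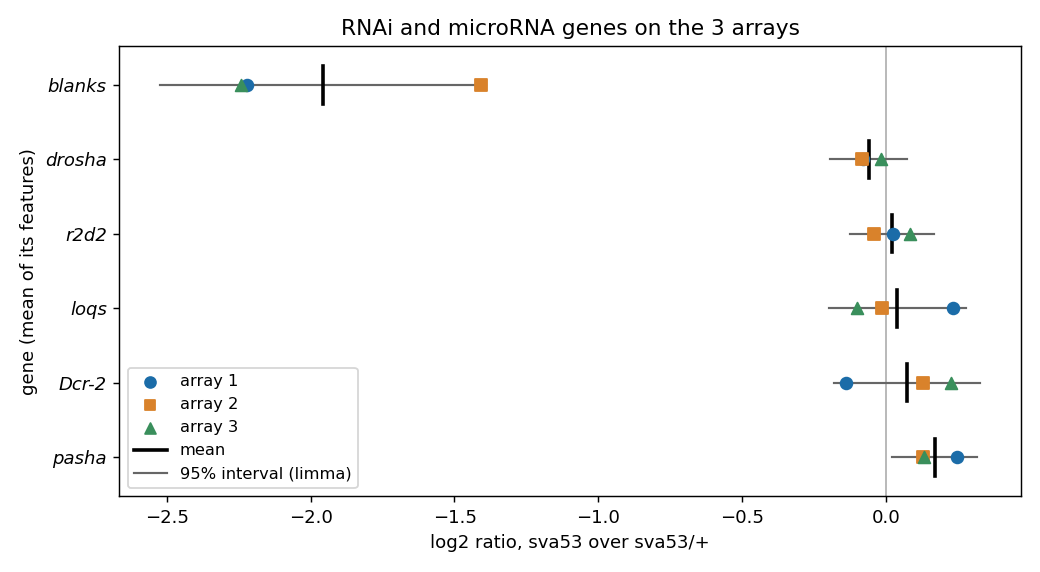
Log2 ratio of sva53 over sva53/+ (horizontal axis) for the 6 measured genes, ordered by mean, with 1 symbol for each array, the mean as a vertical bar and limma's 95% interval as a line. The blanks values lie between -2.24 and -1.41, while the other 5 genes stay between -0.14 and 0.24 on every array.

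The nuclear step of the microRNA branch had small ratios. The RNase gene drosha read -0.08, -0.08 and -0.02 on arrays 1, 2 and 3. All of them lay just below 0, and the mean was -0.06 ± 0.04 (SD, n = 3 arrays; adjusted p 0.415 with limma). The 95% interval ran from 0.874-fold to 1.05-fold of the control. Its 2 features differed by 0.11, 0.12 and 0.11 on the 3 arrays, a gap with an SD of only 0.005, in which feature 20860 was always the lower (mean -0.12) and feature 8879 lay at -0.004.

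The gene of Drosha's partner, pasha, read 0.24, 0.13 and 0.13. It was above 0 on each array, with a mean of 0.17 ± 0.07 (SD, n = 3 arrays). This did not pass (adjusted p 0.111, unadjusted p 0.0345 with limma), and the 95% interval ran from 1.01-fold to 1.24-fold. The average hides a disagreement between the features. Feature 11722 read 0.43, 0.40 and 0.51, with a mean of 0.45 ± 0.06 (SD, n = 3), and it was called higher when features were tested singly (adjusted p 0.0333 with limma). Feature 12154 read 0.06, -0.15 and -0.24, with a mean of -0.11 ± 0.15 (SD, n = 3), and was not called (adjusted p 0.373 with limma). The values of the 2 features did not overlap on the 3 arrays. The distance between their means, 0.56, was wider than that of 92.7% of the genes with 2 features. Whether pasha transcripts differed between the genotypes is therefore not settled by these features, and which part of the transcript each one reads is not given in the sources used here.

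**Figure D2:**
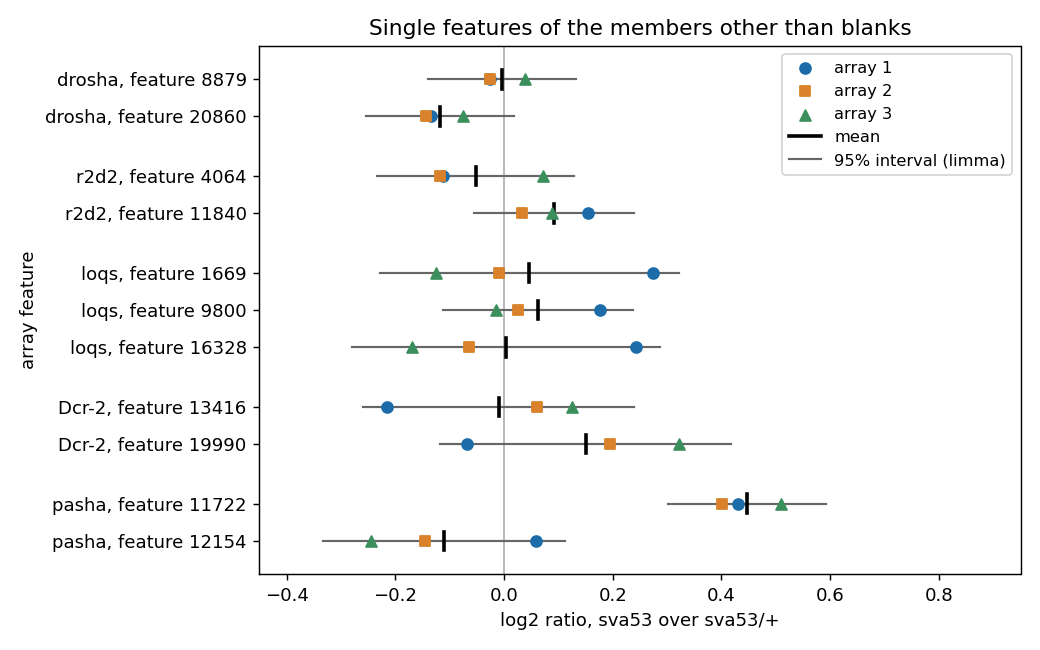
Log2 ratio of sva53 over sva53/+ for each of the 11 features of the 5 genes other than blanks, with 1 symbol for each array, the mean as a vertical bar and limma's 95% interval as a line. Feature 11722 of pasha lies between 0.40 and 0.51, apart from feature 12154 of the same gene, while the features of loqs repeat one another with array 1 as the highest.

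For the cytoplasmic step, loqs encodes the double-stranded RNA-binding partner of Dcr-1, and one of its protein forms also works with Dcr-2. It read 0.23 on array 1, -0.02 on array 2 and -0.10 on array 3, with a mean of 0.04 ± 0.17 (SD, n = 3; adjusted p 0.779 with limma). The sign thus differed between the pools. The 3 features agreed on that order: each was highest on array 1, at 0.18 to 0.27, and lowest on array 3, at -0.17 to -0.01. Their means lay within 0.06 of each other, and 4.23% of the 567 genes with 3 features had a smaller range. The spread of loqs over the arrays was thus shared by its features.

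In the small interfering RNA branch the RNase gene Dcr-2 had the opposite order. It read -0.14 on array 1, 0.13 on array 2 and 0.22 on array 3. Array 1 was the lowest for both features, at -0.22 and -0.07, and array 3 the highest, at 0.13 and 0.32. The mean was 0.07 ± 0.19 (SD, n = 3; adjusted p 0.616 with limma). On array 1 the value of Dcr-2 was 0.32 below its mean on arrays 2 and 3, and that of loqs was 0.29 above. The median size of that difference was 0.14 over all entries. Each array held a single mutant pool, so pool and array cannot be told apart.

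The gene of Dcr-2's partner, r2d2, read 0.02, -0.04 and 0.08. These values lay on both sides of 0, with a mean of 0.02 ± 0.06 (SD, n = 3 arrays; adjusted p 0.807 with limma). The 95% interval ran from 0.917-fold to 1.12-fold. Feature 11840 (mean 0.09) was above feature 4064 (mean -0.05) on each array. Such a constant order was common, found in 57.4% of all 4814 genes with 2 features and in 4 of the 5 such members.

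Taken by number, 1 of 6 measured members was called (16.7%), blanks, against 13.9% of all entries, so the share of calls was near that of the whole table. None of the other 5 was called by limma, and 1 of them, pasha, had an unadjusted p under 0.05. The sign was the same on all arrays in 3 of 6 members (blanks, drosha and pasha), against 58.8% of all entries. The median size of the member means was 0.07, against 0.15 over all entries, and the median SD was 0.12 for both. The 5 members other than blanks had means between -0.06 and 0.17, a band of absolute size that held 55.1% of all genes. Their 95% intervals together ran from 0.870-fold to 1.25-fold of the control, so a change of 2-fold in either direction lay outside each of them, for the gene averages and within the limits of a single control RNA. When features were tested singly, 3 of 13 were called (23.1%), both of blanks and 1 of pasha, against 15.2% of all features.

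**Figure D3:**
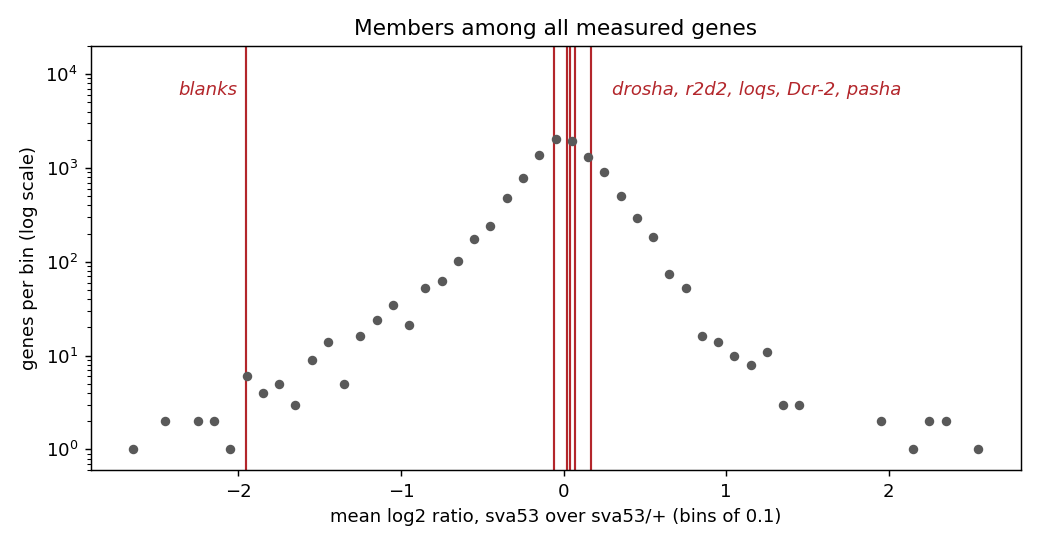
Number of genes (log scale) in bins of 0.1 of the mean log2 ratio of sva53 over sva53/+, shown as points, with vertical lines at the 6 measured members. The line of blanks stands at -1.96 in the lower tail, and the lines of the other 5 stand at or near the peak, between -0.06 and 0.17.

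In the order of the means, blanks was followed by drosha, r2d2, loqs, Dcr-2 and pasha. The step from blanks to drosha was 2.14, 1.33 and 2.22 on arrays 1, 2 and 3, larger than the spread of either gene. The lowest of the other members on each array was Dcr-2, drosha and loqs in turn, and blanks lay 2.08, 1.33 and 2.14 below it. The step from drosha to r2d2 (0.10, 0.04 and 0.10) had the same sign on each array. The later steps, from r2d2 to loqs, from loqs to Dcr-2 and from Dcr-2 to pasha, changed sign between arrays, so these neighbours did not differ beyond their spread. No p is given for a step, since an exact sign test over 3 arrays cannot go below 0.25.

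The genes whose 3 ratios lay closest to those of blanks, by Euclidean distance over the 3 arrays, were RpL22-like (distance 0.23), HP6 (0.24), CG15599 (0.46), CG32572 (0.54) and eIF4E3 (0.55), against a median distance of 3.46 over all genes. RpL22-like, a ribosomal protein paralog, read -2.25, -1.21 and -2.14, but its features disagreed in size, with means of -3.28 and -0.45. HP6, of the heterochromatin protein 1 family, read -2.41, -1.46 and -2.11. In all 5 genes, as in blanks, array 2 had the smallest decrease, a pattern that choosing them by distance to blanks favours. The cap-binding factor gene eIF4E3 read -2.66, -1.74 and -2.31. The average of CG32572 was nearly even over the arrays, at -1.97, -1.86 and -2.10 (SD 0.12). Its 2 features varied more, with means of -2.15 and -1.80 and SDs of 0.31 and 0.39. CG15599 read -2.40, -1.39 and -1.82, and like HP6 it had only 1 feature. With 3 arrays and 1 shared control this likeness is a description.

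Of the 6 protein-coding genes next to blanks in the RefSeq annotation, 3 on each side, 4 had a feature. Of these 0 were called by limma, and 1 had an unadjusted p under 0.05. CG4835 read -0.17 (adjusted p 0.154), Lkr -0.08, CG13285 0.03 and Ir64a 0.36 (adjusted p 0.0824 with limma). None of the measured neighbours thus had a ratio near that of blanks.

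Genes that act with this machinery were read from 5 lists, which held 46 measured genes, of which 9 were called higher and 3 lower (26.1%, against 13.9% of all entries). The lists were chosen with earlier results of these data known. Of 22 genes of microRNA silencing and turnover, 6 rose, 1 fell and 15 did not pass, with a median of 0.10 against -0.003 over all entries. The number that rose was 5 with scaled arrays or exact zeros removed, 4 with a robust prior and 7 with array weights or single features. With scaled arrays, array weights or single features 2 fell. Pop2, a deadenylase of the CCR4-NOT complex, read 0.73, 0.51 and 0.34 and rose by 0.53 ± 0.20 (SD, n = 3; adjusted p 0.0451 with limma). Every pool was above the control.

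The translational repressor gene brat read 0.25, 0.46 and 0.59 and rose by 0.43 ± 0.17 (SD, n = 3; adjusted p 0.0497 with limma), at the edge of the threshold, and it was not called with scaled arrays or a robust prior. Ge-1, a scaffold of mRNA decapping, rose by 0.36 ± 0.04 (SD, n = 3; adjusted p 0.0357), and its features gave 0.38 and 0.35. Ranbp21, whose mammalian counterpart is the exportin that carries microRNA precursors out of the nucleus, read 0.30, 0.32 and 0.41 and rose by 0.34 ± 0.06 (SD, n = 3; adjusted p 0.0386). The other 2 that rose were the cap-binding gene Cbp80 (0.34) and the helicase gene me31B (0.24), which was not called with a robust prior or with exact zeros removed. The gene of the microRNA silencing list that fell was pAbp, for the poly(A)-binding protein, at -0.42, -0.28 and -0.33 (mean -0.34 ± 0.07, adjusted p 0.0404 with limma). The silencing effector gene gw, whose product binds AGO1, read -0.16, 0.03 and 0.23 and did not pass (mean 0.03, adjusted p 0.832 with limma). Its features gave -0.11 and 0.17.

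Of 7 accessory factors of small interfering RNAs, 1 rose, 1 fell and 5 did not pass, with a median of 0.06. With array weights 2 were called higher and 2 lower, with the feature of smallest SD 3 and 1, and with single features 3 and 2. The largest ratio belonged to vig, which encodes an RNA-binding component of the silencing complex and lies in an intron of vas. It read -1.12, -0.96 and -0.89 and fell, with a mean of -0.99 ± 0.12 (SD, n = 3; adjusted p 0.029 with limma), with both features at -0.99. All pools were thus close to a halving. Hen1, the methyltransferase that protects the ends of small interfering and piRNAs, read 0.55, 0.30 and 0.37 and rose by 0.41 ± 0.13 (SD, n = 3; adjusted p 0.0431), and its features gave 0.47 and 0.34. Vago, an antiviral gene that depends on Dcr-2, read 0.08, 0.62 and 0.50 and did not pass (mean 0.40, adjusted p 0.11), and its features disagreed, at -0.02 (not called) and 0.83, which was called when features were tested singly (adjusted p 0.0306 with limma). For Rm62, an RNA helicase gene, the average of -0.21 did not pass (adjusted p 0.066), while its features pointed in opposite directions, at -0.71 and 0.29, and both were called singly (adjusted p 0.0322 and 0.0413 with limma).

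**Figure D4:**
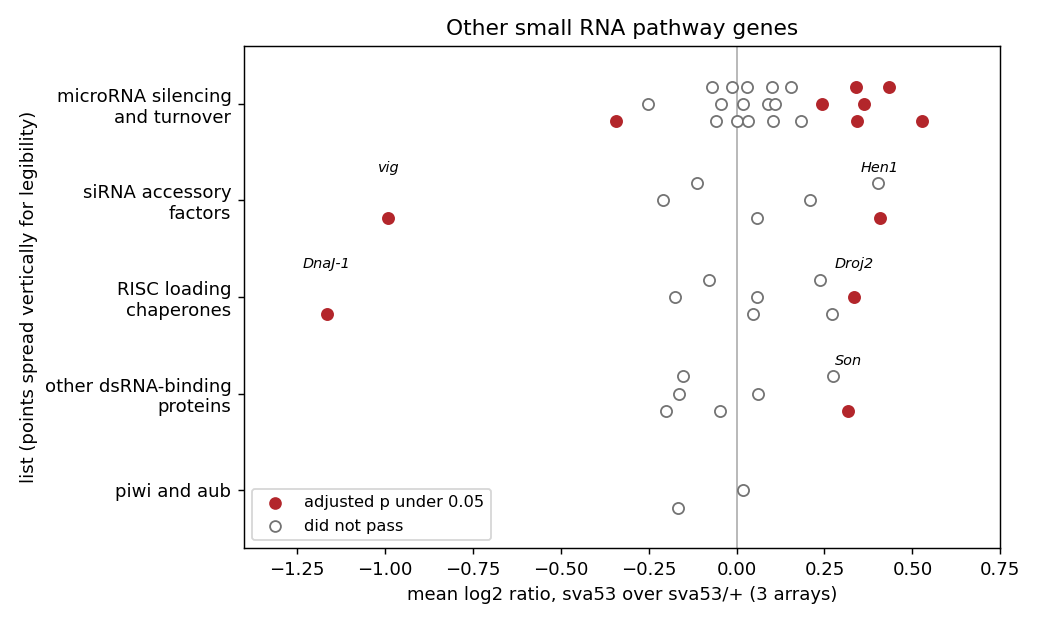
Mean log2 ratio of sva53 over sva53/+ for the 46 measured genes of the 5 lists, with 1 point for each gene, filled where the adjusted p was under 0.05. The 2 lowest points are DnaJ-1 (-1.17, features in opposite directions) and vig (-0.99), and the called genes of microRNA silencing lie between -0.34 and 0.53.

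Of 8 measured genes on the list of chaperones for loading the silencing complex, 1 rose, 1 fell and 6 did not pass, with a median of 0.05. Not all 8 are known to act in that step. The number called higher was 2 with scaled arrays, 3 with array weights or single features and 4 with the feature of smallest SD, and 2 were called lower with single features. Droj2, a DnaJ-type co-chaperone gene, rose by 0.33 ± 0.06 (SD, n = 3; adjusted p 0.0401 with limma), although its features gave 0.14 and 0.53. DnaJ-1 was called lower at -1.17 ± 0.50 (adjusted p 0.0464), but its features read 0.28 and -2.61, so its direction is uncertain. Hsc70-4, a chaperone known to work in loading, read 0.08, 0.08 and -0.01 (adjusted p 0.545 with limma). Its features differed in sign, at -0.11 and 0.20.

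Of the 7 other double-stranded RNA-binding proteins, which share that kind of domain or activity with Blanks, Loqs, R2D2 and Pasha, 1 rose, 0 fell and 6 did not pass, with a median of -0.05. Removing trends over the array grid left 0 called higher and 1 lower. The counts were 1 and 2 under array weights, and 1 and 1 for the feature of smallest SD. Son, a splicing cofactor gene, was the one that rose (0.32 ± 0.08, SD, n = 3; adjusted p 0.0451 with limma), and it read 0.26 and was not called with the grid trends removed. The RNA localisation gene stau read -0.35, -0.16 and 0.05 and did not pass (mean -0.15, features -0.37 and 0.06). The RNA editing gene Adar read 0.35, 0.04 and 0.43 and did not pass (mean 0.27, adjusted p 0.136 with limma). The helicase gene mle lay at -0.05, with features at -0.16 and 0.06. The lowest mean in this list was -0.20, of DIP1, which did not pass (adjusted p 0.0707), so all 7 means lay above the value of blanks on every array. Of the Argonaute genes of the piRNA branch, piwi (0.02, adjusted p 0.877) and aub (-0.17, adjusted p 0.151) did not pass.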

How the data were processed

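Per the submitters' processing notes, the arrays were read with Agilent Feature Extraction 7.1. The deposited values are log10 ratios of the 2 channels, 1 for each of 22575 features and array. How background and dyes were corrected and what was filtered is not given in the sources used here, and the log10 scale was read from the values. Per the labels, 100 ng of total RNA was amplified and labelled for each channel. The ratios were turned to log2 of mutant over control. Medians outside the grid edge were 0, and arrays were not centred. The 636 features at the grid edge, none annotated, were left out.

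Features with 1 gene symbol (17329) were averaged per gene on each array, and the other features stayed single, which gave 15415 entries. They were tested against 0 with limma 3.58.1 in R 4.3.3 (lmFit, eBayes, 2-sided, Benjamini-Hochberg). Symbols come from the platform annotation, and neighbours from RefSeq assembly GCF_000001215.4. No other columns were present. The number of arrays limits the precision, and intensities were not analysed here. In simulated data for this comparison over 15415 entries with 200 changed, limma recovered 37.3% of 1.5-fold, 70.1% of 2-fold and 78.8% of 4-fold changes, with 3 false calls. The simulation held no shared control and no dye bias, so its false calls do not cover these. In the data 2135 entries were called, so the adjustment differed and the recovered shares need not carry over.

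The members, lists and tests were chosen with earlier results of these data known. Named were all measured members, up to 4 highest and 4 lowest called genes of each list, and the 5 genes nearest to blanks; the neighbours of blanks and gw, Vago, Rm62, Hsc70-4, stau, Adar, mle, DIP1, Cbp80, me31B, cup and mamo were chosen after their values were seen. Alternatives were centring, scaling, grid trends, a robust prior, array weights, single features, the feature of smallest SD, exact zeros, other thresholds and leaving out each array.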

Additional observations from a re-analysis of the deposited data

How the results depend on the processing

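With all arrays, blanks passed in 9 of 11 alternatives, with means between -1.98 and -1.61. These were not all separate checks. Centring changed nothing, since the array medians were already 0, and no exact zero was among the blanks values. The feature of smallest SD was feature 18923, which was also counted as a single feature. The gene blanks missed an adjusted p under 0.01 (-1.96, adjusted p 0.0344 with limma). No entry met that threshold (0 higher and 0 lower), while 5588 entries had an unadjusted p under 0.05 with limma. The gene also missed limma's test against a fold of 1.5 (-1.96, adjusted p 0.327), under which 5 entries were called higher and 10 lower. Without any 1 array limma called 0 members and 0 entries, while 3277 to 4710 entries had an unadjusted p under 0.05. The mean of blanks then lay between -2.23 and -1.81, with adjusted p from 0.0851 to 0.146 and unadjusted p up to 0.00874.

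Over all entries 2869 were called higher and 2935 lower with array weights, and 1660 and 1758 with the feature of smallest SD, against 1021 and 1114. Of 21939 single features 1730 were called higher and 1608 lower. With the feature of smallest SD, or single features, 1 member was called higher, pasha (0.45), whose other feature read -0.11.

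Members near 0 changed sign. Dcr-2 read -0.01 with the feature of smallest SD, which is feature 13416 taken singly, and with 1 array left out it ranged from -0.0069 (without array 3) to 0.18. The mean of loqs was -0.0048 with array weights and ranged from -0.059 (without array 1) to 0.11 with 1 array left out. The mean of r2d2 was -0.018 with array weights and -0.052 with feature 4064, and ranged from -0.010 (without array 3) to 0.051 with 1 array left out. DnaJ-1 read 0.28 with its feature of smallest SD. Of the other named genes, me31B was not called with a robust prior or with exact zeros removed, brat not with scaled arrays or a robust prior, and Son not with grid trends removed. The lists had 0 calls at an adjusted p under 0.01, against a fold of 1.5 and without any 1 array, and their other counts that moved stand beside each list. No paired analysis was possible because all samples form 1 group against 1 shared control.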
